A study of Mus musculus with 12 samples.

Results

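The genes described here are 37 autophagy and ER-phagy genes, chosen by name from the 55536 genes of the deposited mouse table. All 37 were found under their gene names, and all 37 passed the filter on low counts. Autophagy encloses cytoplasm in a double membrane, the autophagosome, and delivers it to the lysosome for breakdown. A kinase complex around Ulk1 starts the process, a lipid kinase and lipid carriers build the membrane, and conjugating enzymes couple small Atg8 proteins to it, which capture cargo through receptors. In ER-phagy the cargo is endoplasmic reticulum, the organelle in which thyroid cells fold thyroglobulin, the protein precursor of thyroid hormone.

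The study concerns thyroid dysplasia in C57BL/6NTac mice that carry a LINE-1 element within the thyroglobulin gene Tg. Thyroids of 12 mice were sequenced as total RNA depleted of ribosomal RNA, with 1 library per mouse. The affected group was 5 mice of the Taconic substrain (B6NTac) with the dysplasia phenotype. The unaffected group was 7 mice, of which 6 came from Charles River (B6NCrl) and 1, replicate 14, was a knockout animal from Taconic whose altered gene is not given in the sources used here. The labels give neither age, sex, Tg genotype nor batch for these mice. Colony and phenotype cannot be told apart in this design, except through the single unaffected Taconic mouse.

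Total estimated counts were 20811033, 22203377, 20331145, 23319948 and 20170500 in affected replicates 1, 3, 4, 5 and 6. In the unaffected mice they ran from 11434901 in replicate 14 to 22401136 in replicate 22. Levels in each mouse are given as counts scaled to the library total with TMM factors (CPM), which serves to compare mice. Levels of different genes are compared on the deposited FPKM, which is per length of transcript. Fold changes are log2 values of affected over unaffected mice with their standard error (SE), and a gene is said to have risen or fallen when its adjusted p was under 0.05 in the quasi-likelihood test of edgeR, adjusted by Benjamini-Hochberg over the 19661 genes tested.

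Thyroid markers were present in every library. The summed FPKM of 11 thyrocyte markers was 14512, 25000, 32564, 26149 and 14019 in the 5 affected mice, and lowest 26528, median 28133 and highest 35841 in the 7 unaffected mice. Tg was the most abundant of them, at a mean FPKM of 21797 in affected and 28681 in unaffected mice. The iodide and chloride exchanger gene Slc26a4 was at 0 in unaffected replicates 14 and 22, and no other thyrocyte marker was at 0 in any mouse. Among the 11, Slc26a4 rose (log2 fold change 3.69, SE 0.645, adjusted p = 0.00301, all 5 affected mice, at 0.606 to 3.34 CPM, above all 7 unaffected mice, at 0 to 0.293 CPM) and the transcription factor gene Pax8 fell (−0.81, SE 0.192, adjusted p = 0.0158, all 5 affected mice below the unaffected median).

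Of the 37 autophagy and ER-phagy genes, 5 rose in affected thyroids and 0 fell. Over all 19661 genes tested, 7.63% rose (1500 genes) and 6.1% fell (1199 genes), 13.7% in all. The 5 were Atg13 of the initiating kinase complex, the Atg8 proteins Gabarap and Gabarapl1, the cargo receptor Sqstm1 and the ER-phagy receptor Ccpg1. At an unadjusted p under 0.05, edgeR gave 11 higher and 0 lower, where 15.4% of all genes were higher and 13.6% lower. After adjustment DESeq2 called 7 higher and 0 lower (2046 and 1551 of all 19661 genes) and limma on FPKM 6 higher and 0 lower (5.26% and 4.79% of all genes). The median log2 fold change of the 37 genes was 0.09, within a range from −0.18 (Atg14) to 0.66 (Sqstm1), and 28 of the 37 were above 0 (75.7%). The median over all genes tested was 0.01, with 50.8% above 0. In 2 of the 37 genes, Atg13 and Gabarap, every affected mouse was above every unaffected mouse by CPM. Of all 19661 genes tested 7.14% were without overlap in either direction, 743 higher and 661 lower. By the deposited FPKM every affected mouse was above in 3 genes, Atg13, Sqstm1 and Ccpg1, and not in Gabarap. On that scale 5.94% of all genes tested were without overlap, 572 higher and 595 lower. Without unaffected replicate 22 the number that rose was 8, with Ulk2, Map1lc3b and Tex264 added, and 7.53% of all genes rose there.

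The division of all genes into higher and lower calls moved with the scaling. With library totals taken without Tg, which held between 10.7% and 29.6% of the counts of a mouse, and without TMM factors, 604 genes were higher and 1709 lower, and with upper-quartile factors 1149 were higher and 1510 lower. Without TMM factors the median of all genes was 0.00 and that of the 37 genes 0.08 with Tg in the totals, and 6 of the 37 genes rose (5.87% of all genes). With Tg also left out the medians were −0.13 and −0.05. On that scale 3 of the 37 genes rose, Atg13, Gabarapl1 and Sqstm1, and 1 fell, the lipid kinase gene Pik3c3, where 3.07% of all genes rose and 8.7% fell. Relative to the shifted median, the log2 fold changes there were 0.47 for Atg13, 0.34 for Gabarap, 0.48 for Gabarapl1, 0.66 for Sqstm1, 0.32 for Ccpg1 and −0.14 for Pik3c3.

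**Figure D1:**
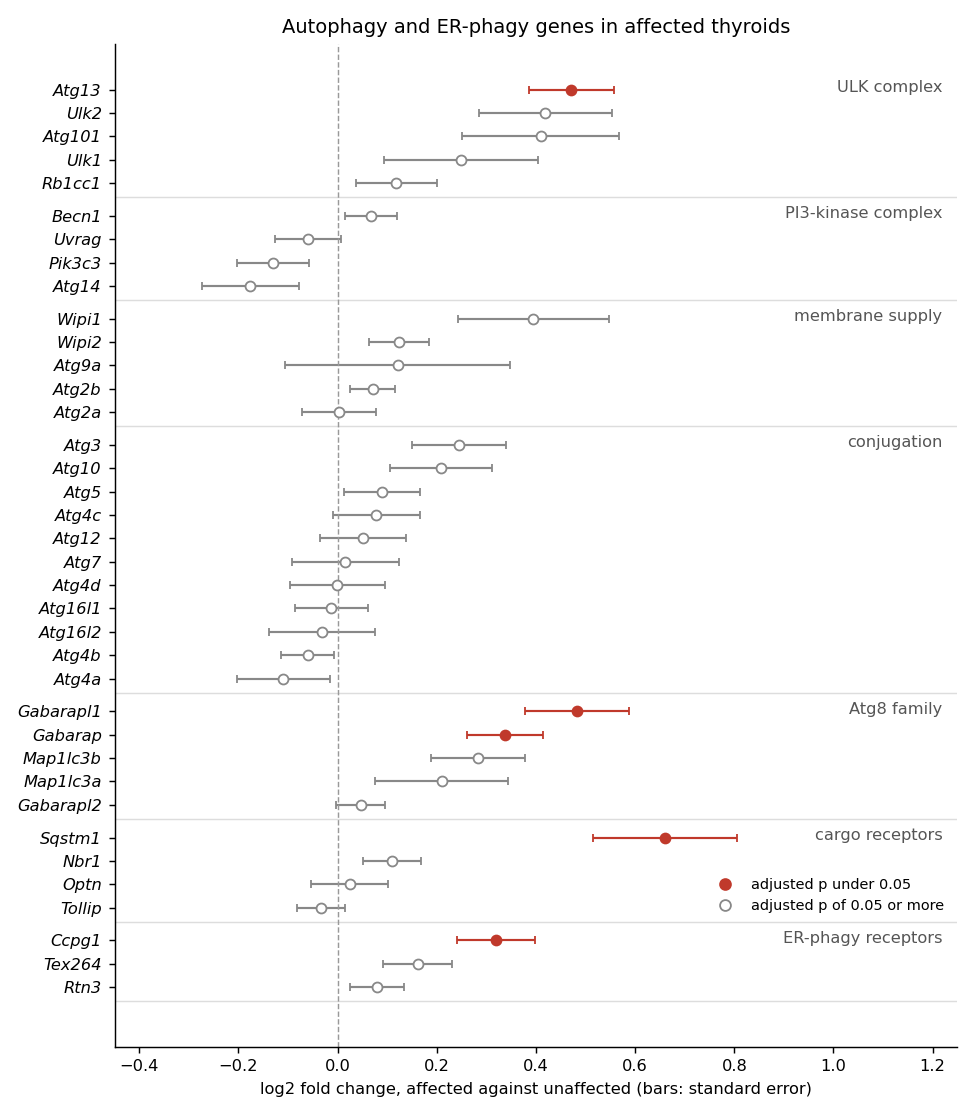
Log2 fold change of each of the 37 genes, 5 affected against 7 unaffected mice, grouped by role, with bars for the standard error. Filled points are the 5 genes with an adjusted p under 0.05, and all 5 lie above 0.

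The Ulk1 complex receives the signals that start autophagy, and 1 of its 5 genes rose. Atg13, the subunit that ties the kinase to its scaffold, was at 46.1, 55.8, 57.9, 62.2 and 60.6 CPM in the 5 affected mice, and lowest 37.3, median 39.4 and highest 45.8 CPM in the 7 unaffected mice. Affected replicate 1 was the low mouse of its group and lay just above unaffected replicates 23 and 24, and the groups did not overlap. Atg13 had a log2 fold change of 0.47 (SE 0.0853, adjusted p = 0.00363, higher in 5 of 5 affected mice). Ulk2, a kinase related to Ulk1, was at 56.5, 62.7, 69.1, 71.5 and 101.2 CPM in affected mice, and lowest 47.6, median 51.3 and highest 67.5 CPM in unaffected mice. Affected replicate 6 stood far above the rest of its group, and unaffected replicate 22 reached into the affected range. The log2 fold change of Ulk2 was 0.42 (SE 0.134), with 5 of 5 affected mice above the unaffected median, and it did not pass (adjusted p = 0.0570). Atg101, which stabilises Atg13, was at 12.2, 7.23, 5.72, 6.77 and 7.38 CPM in affected mice, and lowest 5.55, median 5.76 and highest 6.58 CPM in unaffected mice. Affected replicate 1 was high, affected replicate 4 was within the unaffected range, and the other affected mice were just above it. Its log2 fold change was 0.41 (SE 0.158, adjusted p = 0.107, 4 of 5 affected mice above every unaffected mouse).

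The kinase gene Ulk1 itself was at 66.2, 62.0, 55.3, 64.7 and 101.1 CPM in affected mice, and lowest 48.2, median 56.5 and highest 78.1 CPM in unaffected mice. The high mice were affected replicate 6 and unaffected replicate 22, and the other affected mice lay within the unaffected range. The log2 fold change of Ulk1 was 0.25 (SE 0.155, adjusted p = 0.316) with all mice, and between 0.09 and 0.35 when each mouse was left out in turn. Rb1cc1, the scaffold of the complex also known as FIP200, had a log2 fold change of 0.12 (SE 0.0815). It was the most abundant of the 5 genes per length, at a mean FPKM of 34.2 in unaffected mice (SD 3.52, n = 7), and Atg101 the least, at a mean FPKM of 4.93 (SD 0.284, n = 7).

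The lipid kinase complex marks the membrane on which the autophagosome forms, and 4 of the 37 genes belong to it. Nrbf2, a further part of the complex, is outside the 37 genes and is given below. Of the 4 genes, 0 passed the test in either direction. At an unadjusted p under 0.05, edgeR also gave 0 of the 4, and DESeq2 and limma called 0. The catalytic subunit Pik3c3 had a log2 fold change of −0.13 (SE 0.0732), and 4 of 5 affected mice were below the unaffected median. Atg14, which directs the complex to autophagosome formation, had the lowest log2 fold change of the 37 genes, −0.18 (SE 0.0971, adjusted p = 0.254), again with 4 of 5 affected mice below the unaffected median. Becn1, the shared regulatory subunit, was at 0.07, and Uvrag, which replaces Atg14 in an endosomal form of the complex, was at −0.06 on the same log2 scale. The summed FPKM of the 4 genes was 55.9, 59.6, 54.5, 59.97 and 46.8 in affected mice, and lowest 54.2, median 56.3 and highest 61.9 in unaffected mice. The groups overlapped, and affected replicate 6 was the low mouse.

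Of the 37 genes, 5 supply lipid to the growing membrane or bind its lipid mark. Of these 5 genes, 0 passed the test in either direction, and DESeq2 and limma called 0. In edgeR 1 had an unadjusted p under 0.05. That 1 gene was Wipi1, which binds the lipid made by Pik3c3. Wipi1 was at 29.6, 33.8, 34.7, 36.5 and 44.1 CPM in affected mice, and lowest 20.6, median 24.1 and highest 38.5 CPM in unaffected mice. All affected mice were above the unaffected median, and unaffected replicate 23 lay above every affected mouse except replicate 6. Its log2 fold change was 0.39 (SE 0.152, adjusted p = 0.107), and without unaffected replicate 23 it was 0.51 with an adjusted p of 0.0268, within a range of 0.0192 to 0.209 over 25 alternatives. Its relative Wipi2 had a log2 fold change of 0.12, as did Atg9a, the membrane protein of the vesicles that seed the autophagosome. For Wipi2, 5 of 5 affected mice were above the unaffected median. For Atg9a only affected replicate 6 was above it, at 57.0 CPM. The other affected mice, at 25.2 to 33.1 CPM, were below the unaffected median of 33.5 CPM. The lipid transfer proteins Atg2a and Atg2b were at 0.00 and 0.07. The lipid scramblase genes Vmp1 and Tmem41b are outside the 37 genes and are given below. Of the 37 genes Atg9a varied most among unaffected mice, with a coefficient of variation in CPM of 25.5%, and Wipi2 least, with 2.43%.

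The conjugation enzymes attach the Atg8 proteins to lipid, and 0 of 11 passed the test in either direction. At an unadjusted p under 0.05, edgeR gave 1 higher and 0 lower, and DESeq2 and limma called 0. The median log2 fold change of the 11 genes was 0.02, within a range from −0.11 (Atg4a) to 0.25 (Atg3). Atg3, the enzyme that hands Atg8 proteins over to lipid, was at 33.9, 22.9, 25.4, 25.5 and 28.2 CPM in affected mice, and lowest 20.02, median 23.3 and highest 25.0 CPM in unaffected mice. Affected replicate 1 was high and replicate 3 was within the unaffected range, and 4 of 5 affected mice were above every unaffected mouse. The log2 fold change of Atg3 was 0.25 (SE 0.0946, adjusted p = 0.106). Atg7, the enzyme that activates Atg8 proteins, was at 0.02. Of the conjugate that completes the transfer, Atg5 was at 0.09, Atg12 at 0.05, Atg16l1 at −0.01 and its relative Atg16l2 at −0.03, and Atg10, which joins Atg12 to Atg5, was at 0.21. The Atg4 proteases, which trim Atg8 proteins and release them again, lay from −0.11 (Atg4a) to 0.08 (Atg4c), with Atg4b at −0.06 and Atg4d at 0.00. The summed FPKM of the 11 genes was 110, 97.4, 89.2, 95.2 and 87.9 in affected mice, and lowest 89.9, median 94.2 and highest 103 in unaffected mice. The highest and the lowest sum were both in affected mice, replicates 1 and 6, so the groups overlapped over the whole unaffected range.

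The Atg8 proteins themselves coat the autophagosome, and 2 of these 5 genes rose. Gabarap was at 119.8, 132.8, 155, 144 and 124 CPM in affected mice, and lowest 97.1, median 109 and highest 119.4 CPM in unaffected mice. Affected replicate 4 was the highest, and affected replicate 1 lay just above unaffected replicate 22, so that the groups touched without overlap by CPM, while by FPKM affected replicate 6 (95.8) was below unaffected replicates 14 and 22 (95.99 and 100.3). Gabarap had a log2 fold change of 0.34 (SE 0.0767, adjusted p = 0.0124, higher in 5 of 5 affected mice). Gabarapl1, its close relative, was at 125, 98.8, 106.67, 116 and 118 CPM in affected mice, and lowest 67.2, median 78.8 and highest 106.65 CPM in unaffected mice. Unaffected replicate 22 was far above the other unaffected mice and level with affected replicate 4, and affected replicate 3 was below it. The log2 fold change of Gabarapl1 was 0.48 (SE 0.106, adjusted p = 0.0103, 4 of 5 affected mice above every unaffected mouse). Map1lc3b, the LC3 protein commonly used to follow autophagosomes, was at 144, 115, 111, 127 and 151 CPM in affected mice, and lowest 90.4, median 106 and highest 126 CPM in unaffected mice. Affected replicates 3 and 4 were below unaffected replicate 22, and all 5 were above the unaffected median. Its log2 fold change was 0.28 (SE 0.0948, adjusted p = 0.0674).

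The other LC3 gene, Map1lc3a, had a log2 fold change of 0.21 (SE 0.133), and Gabarapl2, the remaining Atg8 gene, 0.05 (SE 0.0496). Affected replicate 6 was at 56.9 CPM for Map1lc3a. The other affected mice, at 34.2 to 42.4 CPM, lay within the unaffected range of 30.3 to 45.6 CPM. By mean FPKM in the 7 unaffected mice, Gabarap was the most abundant of the Atg8 genes at 91.1 (SD 6.95). Map1lc3b was at a mean FPKM of 50.8 (SD 6.08) and Gabarapl1 at 44.6 (SD 5.90), with Map1lc3b above Gabarapl1 in 7 of the 7 mice, by 2.78 to 14.1. Map1lc3a followed at a mean FPKM of 36.4 (SD 4.77) and Gabarapl2 was lowest at 27.8 (SD 1.11). The summed FPKM of the 5 genes was 338, 299, 286, 321 and 307 in affected mice, and lowest 234, median 247 and highest 291 in unaffected mice. Affected replicate 4 lay below unaffected replicate 22 in this sum, and the other affected mice were above every unaffected mouse.

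**Figure D2:**
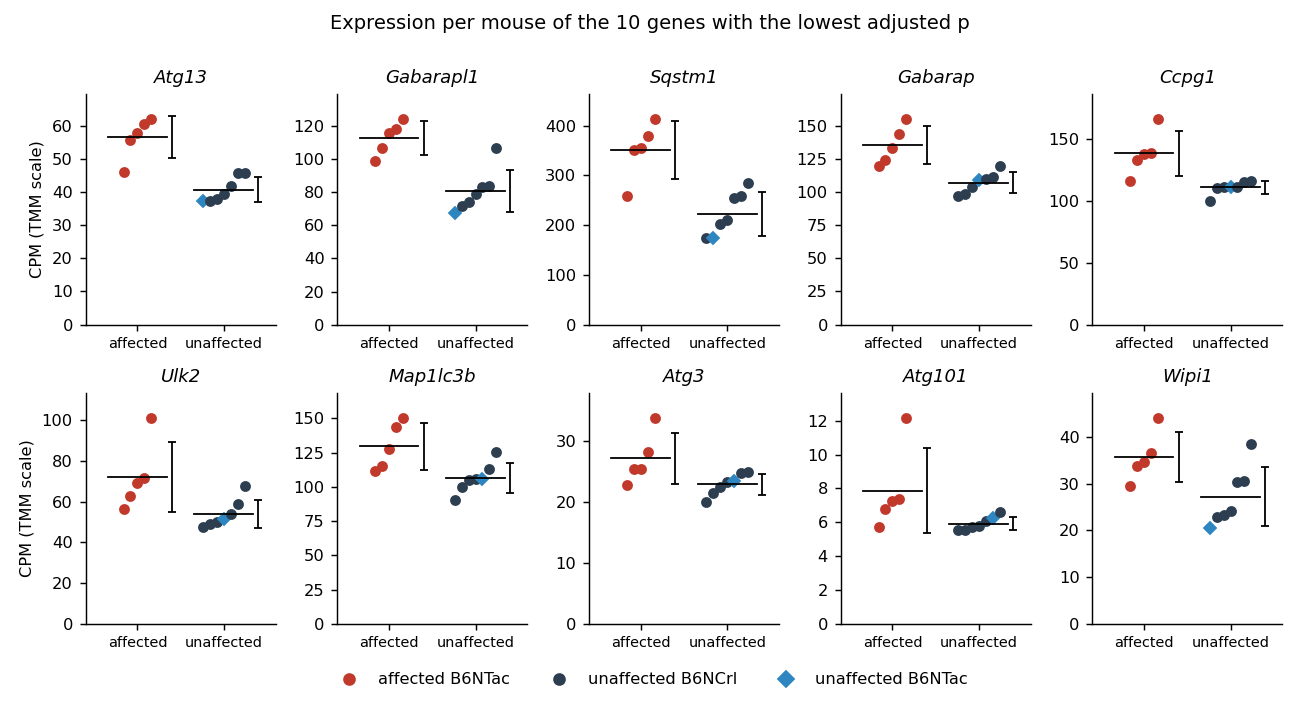
CPM in each of the 12 mice for the 10 genes with the lowest adjusted p, with a line at the group mean and a bar for the standard deviation, and the unaffected B6NTac mouse as a diamond. The affected and unaffected points are apart in Atg13 and Gabarap and overlap in the other 8 genes.

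Cargo receptors link ubiquitin-marked proteins to Atg8 proteins, and 1 of these 4 genes rose. Sqstm1, which encodes p62, a receptor that is itself degraded in autophagosomes, was at 258.13, 379, 355, 350.3 and 415 CPM in affected mice, and lowest 174, median 209.5 and highest 284 CPM in unaffected mice. Affected replicate 1 was the low mouse of its group and lay below unaffected replicate 22 and level with replicate 23, and the other 4 affected mice were above every unaffected mouse. Sqstm1 had a log2 fold change of 0.66 (SE 0.146, adjusted p = 0.0107), the largest of the 37 genes. It was also the most abundant of the 37 genes per length, at a mean FPKM of 178 (SD 21.3, n = 5) in affected and 113 (SD 18.6, n = 7) in unaffected mice. Nbr1, a receptor that acts beside p62, had a log2 fold change of 0.11 (SE 0.0585). Optn, which also serves in the removal of mitochondria, was at 0.02, and Tollip, an adaptor for aggregated proteins, at −0.03.

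Of 3 receptors that tether endoplasmic reticulum to Atg8 proteins, 1 rose. Ccpg1, a receptor in the membrane of the organelle, was at 116.0, 138, 167, 138 and 133 CPM in affected mice, and lowest 99.8, median 112 and highest 116.3 CPM in unaffected mice. Affected replicate 4 was high, affected replicate 1 lay within the narrow unaffected range, and the other 4 affected mice were above every unaffected mouse. The log2 fold change of Ccpg1 was 0.32 (SE 0.0785, adjusted p = 0.0185). Tex264, another receptor in that membrane, was at 32.0, 32.7, 32.6, 34.6 and 29.3 CPM in affected mice, and lowest 26.4, median 28.1 and highest 33.6 CPM in unaffected mice. All 5 affected mice were above the unaffected median and only replicate 5 was above every unaffected mouse, and the log2 fold change was 0.16 (SE 0.0698, adjusted p = 0.146). Rtn3, a receptor of tubular endoplasmic reticulum, had a log2 fold change of 0.08 (SE 0.0549). In unaffected mice Ccpg1 and Rtn3 had a mean FPKM of 40.3 (SD 1.04) and 40.01 (SD 2.76), and Tex264 of 19.6 (SD 1.26).

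The unaffected Taconic mouse, replicate 14, was compared with the range of the 6 B6NCrl mice. By CPM it lay outside that range in 12 of the 37 genes (4 above and 8 below, 32.4%), where 34.5% of all genes tested did so. Of the 5 genes that rose, it was within the B6NCrl range for Gabarap, Sqstm1 and Ccpg1. It was at 37.3 CPM for Atg13, below the B6NCrl range of 37.4 to 45.8 CPM. It was at 67.2 CPM for Gabarapl1, below the B6NCrl range of 71.5 to 107 CPM. By CPM the mouse reached the affected range in none of these 5 genes, while by FPKM it was at 95.99 for Gabarap, above affected replicate 6 at 95.8, and at 41.8 for Ccpg1, above the B6NCrl range.

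Thyroids differed in how much RNA of skeletal muscle they held. The summed level of 8 skeletal muscle markers was 17.2, 192, 96.8, 1283 and 28073 CPM in affected replicates 1, 3, 4, 5 and 6. It was 11.5, 5253, 12249, 4573, 565, 9687 and 8.80 CPM in unaffected replicates 14, 21, 22, 23, 24, 25 and 26. None of the 8 markers passed the test in edgeR, none had an unadjusted p under 0.05, Acta1 was the most abundant, and Ckm was at 0 in unaffected replicate 26. Affected replicate 6 and unaffected replicate 22, the highest of their groups in this sum, were also the highest of their groups in 15 and 17 of the 37 genes. Affected replicates 1, 3, 4 and 5 were so in 9, 2, 7 and 4 genes. Unaffected replicates 14, 21, 23, 24, 25 and 26 were so in 4, 2, 7, 3, 2 and 2 genes. The share over all genes was not computed, and a relation to the marker sum was not tested. Ulk1, Ulk2, Atg9a, Map1lc3a, Map1lc3b and Sqstm1 were among the genes highest of their groups in both affected replicate 6 and unaffected replicate 22. With the muscle markers as a covariate 8 of the 37 genes rose, the 5 above with Ulk2, Wipi1 and Map1lc3b, and 8.05% of all genes rose. In the 7 mice whose marker sum was under 2000 CPM, 4 affected and 3 unaffected, 3 rose, namely Wipi1, Gabarapl1 and Sqstm1, and 3.33% of all genes rose. Among these 7 mice the log2 fold change of Sqstm1 was 0.88 and that of Gabarapl1 was 0.60. Those of Atg13 (0.45, adjusted p = 0.0763, range 1.79e-05 to 0.0763 over 25 alternatives), Gabarap (0.34, adjusted p = 0.0903, range 0.000369 to 0.231) and Ccpg1 (0.34, adjusted p = 0.145, range 0.00139 to 0.253) did not pass there.

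**Figure D3:**
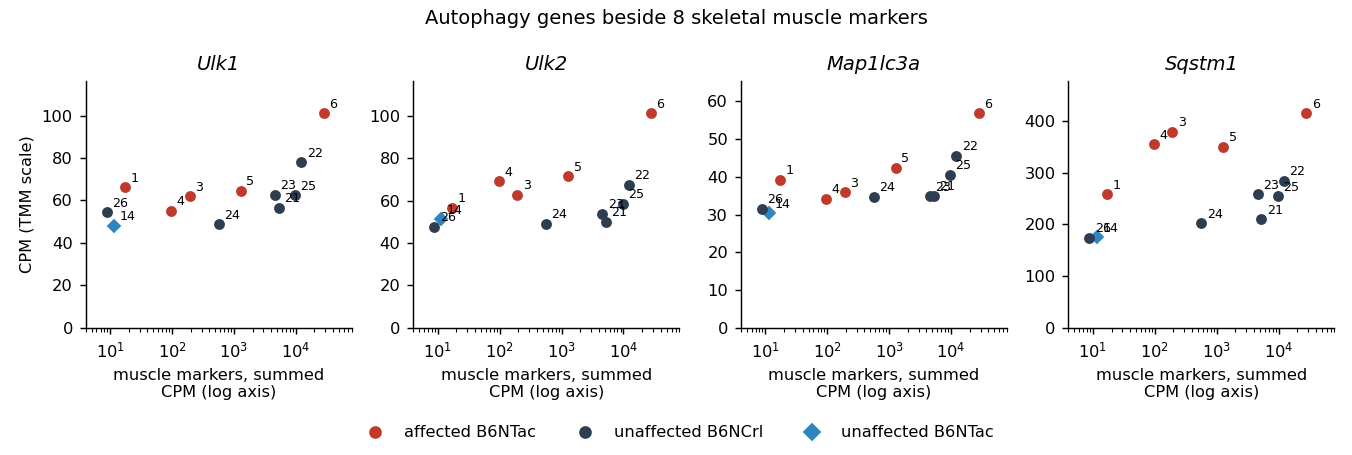
CPM of Ulk1, Ulk2, Map1lc3a and Sqstm1 in each of the 12 mice against the summed CPM of 8 skeletal muscle markers on a log axis, with replicate numbers beside the points. Affected replicate 6, at 28073 CPM of muscle markers, is the highest point in each panel. The genes shown are among those highest of their groups in both affected replicate 6 and unaffected replicate 22.

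Markers of other cell types also differed between mice. Of 9 macrophage markers 4 rose, and their summed FPKM was 281, 248, 161, 175 and 139 in affected mice, and lowest 55.6, median 78.7 and highest 148 in unaffected mice. The most abundant was Lyz2, a lysozyme gene (log2 fold change 1.73, SE 0.232, adjusted p = 0.000667, higher in 5 of 5 affected mice), and none was at 0 in any mouse. Of 6 fibroblast markers 2 rose, and their summed FPKM was 453, 282, 290, 275 and 355 in affected mice, and lowest 182, median 247 and highest 261 in unaffected mice. Dcn, a matrix proteoglycan gene, was the most abundant of these, and none was at 0. Of 6 endothelial markers 0 rose and 1 fell in edgeR, with 1 higher and 1 lower at an unadjusted p under 0.05, and their summed FPKM was 221, 150, 165, 174 and 134 in affected mice and 153 to 195 in unaffected mice, with Pecam1 the most abundant.

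Several of the remaining marker lists stood apart in 1 or 2 mice. The summed FPKM of 6 fat markers was 1135, 166, 106, 405 and 334 in affected mice and 114 to 268 in unaffected mice, with Ucp1 the most abundant. That of 8 T cell markers was 195 and 189 in unaffected replicates 14 and 21 and 8.21 to 9.48 in the other 5 unaffected mice, and 37.3 and 39.1 in affected replicates 1 and 3 and 6.73 to 11.7 in the other 3 affected mice, with Thy1 the most abundant. That of 6 B cell markers was 110 in affected replicate 1 against 4.18 to 5.99 in the other affected mice and 7.23 to 23.7 in unaffected mice, with Ighm the most abundant and Ms4a1 at 0 in affected replicate 3. Parathyroid markers summed to an FPKM of 7.77 in affected replicate 4, where Gcm2 was at 0, and to 2496 or more in every other mouse, with Pth the most abundant of 3. C cell markers summed to between 1183 and 3164 in affected and between 1732 and 3374 in unaffected mice, with Chga the most abundant of 4, Calcb at 0 in affected replicates 5 and 6 and unaffected replicate 14, and 1, Ret, lower. Airway and cartilage markers summed to 219 in affected replicate 3 and to 28.9 or less in every other mouse, with Scgb1a1 the most abundant of 7 and Scgb1a1 at 0 in 3 and Matn1 in 6 of the mice. Erythrocyte markers summed to between 422 and 2569 in affected and between 311 and 2557 in unaffected mice, with Hba-a2 the most abundant of 5. In edgeR 0 of 6 fat, 5 T cell, 2 B cell, 3 parathyroid, 4 airway and cartilage and 5 erythrocyte markers that passed the filter were called, and at an unadjusted p under 0.05 these lists held 3 fat and 2 airway and cartilage markers, all higher. In bulk tissue, fewer cells of a type and less RNA per cell cannot be told apart. The part of these cell types in the results for the 37 genes was not tested, apart from the values given above for skeletal muscle.

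Beyond the 37 genes, 28 further autophagy genes were listed, of which 5 rose and 2 fell, with a median log2 fold change of 0.12. Atg9b, a relative of Atg9a, was at 3.97, 6.41, 4.95, 5.74 and 2.42 CPM in affected mice, and lowest 0.684, median 0.750 and highest 1.153 CPM in unaffected mice. All affected mice were above all unaffected mice at these low counts, and the log2 fold change was 2.41 (SE 0.236, adjusted p = 8.67e-05). Exons of Atg9b share 294 bases with Nos3 on the opposite strand, which was at a mean of 11.9 CPM in affected and 9.36 CPM in unaffected mice. The strand setting of the counting is not given, and the part of Nos3 reads in the Atg9b counts was not tested. Vmp1, a lipid scramblase of the endoplasmic reticulum, was at 76.6, 146, 136, 119 and 82.5 CPM in affected mice, and lowest 50.9, median 58.3 and highest 65.6 CPM in unaffected mice. The groups did not overlap, and the log2 fold change was 0.93 (SE 0.151, adjusted p = 0.00189). Nrbf2, a part of the lipid kinase complex, rose by 0.49 (SE 0.142, adjusted p = 0.0387, 4 of 5 affected mice above the unaffected median) and Tmem41b, a scramblase that acts beside Vmp1, by 0.39 (SE 0.111, adjusted p = 0.0352, 5 of 5). Calcoco1, a receptor for ER-phagy, had a log2 fold change of −0.41 (SE 0.0907, adjusted p = 0.0106), and all 5 affected mice, at 108 to 153 CPM, were below all 7 unaffected mice, at 157 to 198 CPM. Wdr45 and Zfyve1 also passed, at 0.32 and −0.25, and were named after their values were seen. With totals without Tg, Nrbf2, Tmem41b and Wdr45 did not pass, where their log2 fold changes relative to the shifted median were 0.48, 0.40 and 0.32.

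A second list held 12 further genes of ER-phagy, of which 6 rose and 0 fell, with a median log2 fold change of 0.24. At an unadjusted p under 0.05, edgeR also gave 6 higher and 0 lower, and over the 40 genes of both lists edgeR called 11 higher and 2 lower and DESeq2 12 higher and 2 lower. Cdk5rap3, Ufc1, Ddrgk1, Ufm1 and Ufl1 belong to the pathway that attaches the small protein Ufm1 to proteins at the endoplasmic reticulum. The adaptor Cdk5rap3 had a log2 fold change of 0.69 (SE 0.108, adjusted p = 0.00149), the conjugating enzyme Ufc1 0.55 (SE 0.0756, adjusted p = 0.000688), and the membrane anchor Ddrgk1 0.49 (SE 0.0805, adjusted p = 0.00187). Ufm1 itself had a log2 fold change of 0.49 (SE 0.0792, adjusted p = 0.00177), and for it and the 3 genes before it all 5 affected mice were above all 7 unaffected mice by CPM, but by FPKM the groups overlapped for Ufm1. The ligase Ufl1 was at 0.34 (adjusted p = 0.0267, 5 of 5 affected mice above the unaffected median) and is named here after its values were seen. With totals without Tg it did not pass, where its log2 fold change relative to the shifted median was 0.34. Retreg1, a receptor also called FAM134B, was at 54.7, 64.8, 67.5, 95.4 and 218 CPM in affected mice and between 56.9 and 197 CPM in unaffected mice, highest in affected replicate 6 and unaffected replicate 22, and it too was chosen after its values were seen.

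Among 17 lysosomal genes 7 rose and 1 fell, with a median log2 fold change of 0.14. Ctsd, the protease cathepsin D, was at 450.3, 626, 609, 619 and 524 CPM in affected mice, and lowest 314, median 344 and highest 368 CPM in unaffected mice. The groups did not overlap, and the log2 fold change was 0.71 (SE 0.0851, adjusted p = 0.000286). Hexa, a subunit of an enzyme that breaks down glycolipids, had a log2 fold change of 0.51 (SE 0.113, adjusted p = 0.0103), with all 5 affected mice above the unaffected median. It did not pass with totals without Tg, where its log2 fold change relative to the shifted median was 0.52.

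Of 18 genes that act upstream of autophagy, 3 rose and 0 fell, with a median log2 fold change of 0.10 and with 5 higher and 1 lower at an unadjusted p under 0.05 in edgeR. Deptor, an inhibitor of the kinase mTOR, had a log2 fold change of 0.36 (SE 0.0900, adjusted p = 0.0202). Stk11, the kinase that activates AMPK, was at 0.26 (SE 0.0697, adjusted p = 0.0278), and Rheb, an activator of mTOR, at 0.16 (SE 0.0433, adjusted p = 0.0273). For all 3 genes 5 of 5 affected mice were above the unaffected median, and only Rheb was without overlap. With totals without Tg none of the 3 passed: the adjusted p was 0.159 for Deptor (0.00250 to 0.159 over 25 alternatives), 0.285 for Stk11 (0.00515 to 0.285 over 25) and 0.852 for Rheb (0.000868 to 0.852 over 25), where the log2 fold changes relative to the shifted median were 0.36, 0.26 and 0.16. Over the lysosomal and upstream lists together edgeR called 10 higher and 1 lower and DESeq2 11 higher and 2 lower, but without affected replicate 5 the number higher was 3, without affected replicate 3 it was 6 and without unaffected replicate 21 it was 5. The genes Tfeb, Tfe3 and Mitf, transcription factors of lysosomal genes, were at 0.11, 0.09 and −0.04 and were chosen after their values were seen.

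The deposited counts and FPKM together imply a mean transcript length for each gene and mouse. In 3690 genes with 1 annotated transcript the implied length divided by the exon length was between 0.999 and 1.00. Of the 35 genes with at least 100 counts in every mouse, which leaves out Atg101 and Atg10, 0 shifted between groups, that is, with no overlap and a difference of at least 2%, where 1.29% of 10118 genes did so. No test was made of this measure. In 22 of the 35 genes the group means differed by less than 2%. The implied length of Sqstm1 was 1954 bases in affected and 1960 bases in unaffected mice on average, and that of Gabarapl1 was 1811 bases in both. With a minimum of 30 counts all 37 genes were included, and again 0 shifted.

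The 37 genes lie on 18 chromosomes, with 6 on chromosome 11 (Ulk2, Becn1, Wipi1, Gabarap, Sqstm1 and Nbr1). In GRCm38, Sqstm1 is at chr11:50199366-50210827 on the minus strand, Gabarap at chr11:69991143-69994951 on the plus strand, Atg13 at chr2:91674618-91710576 on the minus strand, Gabarapl1 at chr6:129533160-129542346 on the plus strand and Ccpg1 at chr9:72985429-73016340 on the plus strand. Exons of 14 of the 37 genes overlap those of another gene, 12 of them on the opposite strand only, and the strand setting of the counting is not given in the sources used here. Among the 5 genes that rose, Gabarapl1 overlaps 1700101I11Rik and Sqstm1 overlaps Mrnip, and both neighbours were under 1 CPM on average in either group. Ccpg1 overlaps Pigb on the opposite strand, which was at a mean of 35.2 CPM in affected and 35.4 CPM in unaffected mice, and Gm44503 on the same strand, at a mean of 0 and 0.616 CPM. Stretches of at least 75 bases with at least 97% identity to a transcript of another gene were present in 11 of the 37 genes. Of the 5 that rose only Atg13 held such a stretch, at most 108 bases long.

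RefSeq promoters of GRCm38.p6, from 250 bases before to 50 after the start, were available for 31 of the 37 genes (35 promoters). On both strands they were searched for the E-box CACGTG, the longer TCACGTGA, which contains it and is bound by transcription factors of lysosomal genes, TGATGNAA, bound by ATF4 with a C/EBP partner, TGACGTGG, bound by XBP1, and the ER stress element. CACGTG was in the promoters of Atg3, Atg5, Atg7 and Atg14, where 7.15% of all 32851 promoters held it. For Atg7 and Atg14 the window lay at a start inside the annotated gene, and the outermost start was not searched. The Atg7 window was chr6:114670846-114671145, in a plus-strand gene that begins at 114643097. That of Atg14 was chr14:47568385-47568684, in a minus-strand gene that begins at 47570649. TCACGTGA was in the promoter of Atg3 alone, against 0.974% of all promoters. The other motifs were in 0 of the 35 promoters, against 3.97% of all promoters for TGATGNAA, 0.676% for TGACGTGG and 0.119% for the ER stress element. None of the 5 genes that rose held any of these motifs in this window. The promoter of Atg3, chr16:45158579-45158878 on the plus strand, is shown because it alone held the longer motif, with capitals for a CACGTG that begins 94 bases before the start and the TCACGTGA that begins 72 bases before it.
Atg3 promoter: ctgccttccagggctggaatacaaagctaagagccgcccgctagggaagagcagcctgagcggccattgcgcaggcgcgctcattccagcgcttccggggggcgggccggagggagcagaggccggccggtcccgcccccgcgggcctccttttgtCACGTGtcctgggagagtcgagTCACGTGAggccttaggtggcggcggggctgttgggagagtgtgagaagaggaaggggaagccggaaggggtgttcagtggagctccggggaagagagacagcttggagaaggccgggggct
The median GC content was 62.0% in the 35 promoters and 52.7% over all promoters.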

How the data were processed

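RNA of 12 thyroids, 1 library per mouse, was analysed from 2 gene tables. The authors aligned the reads with OmicSoft Aligner to a reference named Mouse.B39 with Ensembl release 96 and deposited an estimated count per gene, without normalization. The deposited FPKM values were also made by the authors, scaled to transcript length and library total. Positions of 37 of the 37 genes equal those of GENCODE M21 (GRCm38). Trimming, strand and filter settings are not given in the sources used here.

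Estimated counts were rounded, filtered with filterByExpr (minimum count 10), scaled by TMM and compared between 5 affected and 7 unaffected mice in edgeR 4.0.16 under R 4.3.3. The model had no covariate, and its robust quasi-likelihood test was adjusted by Benjamini-Hochberg over 19661 genes. Each SE was obtained from the log2 fold change and the F statistic, as their quotient after taking the root of F. The pipeline was tested on simulated data, where 58% of 2-fold and 87% of 4-fold changes were called and 3.33% of the calls were false. Changes under 2-fold, the size of those in the 37 genes, were not simulated. DESeq2 1.42.0, limma 3.58.1 on the deposited FPKM, other scalings and filters, Xist as a covariate, B6NCrl controls alone and leaving out each mouse were the alternatives, and 2 on skeletal muscle markers were added after the data were seen. BLAST+ 2.17.0 was used to match transcripts. All 37 genes are named, with values per mouse for the 10 with the lowest adjusted p, and further ones chosen after their values were seen (Ulk1, Tex264 and, in part, Atg9a and Map1lc3a). Of every other list at most 5 genes past the threshold with the largest changes are named, and of the marker lists the most abundant gene and any marker at 0. Some genes that meet these rules are not reported here. The genes and lists were chosen with earlier results of these data known.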

Additional observations from a re-analysis of the deposited data

Results flagged for a closer look

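The level of each of the 37 genes was checked in both groups for a mouse far from the others, which made 74 groups. By CPM 5 of them (6.76%) held such a mouse and by log2 CPM (prior count 2) 1 of them (1.35%), where chance gives about 1 in 20 groups. In each, the gap to the nearest mouse was a larger part of the range of the group than the critical value of Dixon's test for a group of this size.

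Ccpg1 in unaffected replicate 21 was at 99.82 CPM, the lowest of the 7 unaffected mice, with the nearest at 110.4 CPM, and the gap was 0.641 of the range by CPM and 0.658 by log2 CPM, above the critical value by both. The other 4 were above it by CPM only. Ulk1 in affected replicate 6 was at 101.1 CPM, the highest of the 5 affected mice, with the nearest at 66.24 CPM and a gap of 0.761 of the range. Atg9a in affected replicate 6 was also the highest, at 57.03 CPM with the nearest at 33.05 CPM and a gap of 0.754. Atg101 in affected replicate 1 was the highest at 12.18 CPM, with the nearest at 7.377 CPM and a gap of 0.744. Gabarapl1 in unaffected replicate 22 was the highest of the 7 unaffected mice at 106.7 CPM, with the nearest at 83.56 CPM and a gap of 0.586.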

How the results depend on the processing

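The 5 genes that rose kept their direction under all 25 alternatives, and all 5 passed when any 1 mouse was left out. Gabarapl1 and Sqstm1 passed under 25 of 25 alternatives, Atg13 under 24, and Gabarap and Ccpg1 under 23. Over the 37 genes, 925 log2 fold changes were computed, and 840 kept their direction and their side of the threshold, 5 lost the call, 18 gained it and 62 changed sign without a call on either side. Of 599 for 24 genes of the other lists, 462 kept both and 137 lost the call. None reversed. Leaving out unaffected replicate 14 and using B6NCrl controls alone are the same fit.

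The counts below moved, and the cause was not tested. Of the 37 genes, 5 rose, against 3 with totals without Tg (and without TMM factors, here and below), 8 with muscle markers as a covariate, 3 in mice low in muscle markers (fewer mice) and 5 to 8 in the leave-one-out fits, and 0 fell, against 1 with totals without Tg. Of the 40 further autophagy and ER-phagy genes, 11 rose, against 7 with totals without Tg, 7 with log2(FPKM + 1) without filter, 6 in mice low in muscle markers and 8 to 12 in the leave-one-out fits, and 2 fell, against 1 with no filter on low counts, 0 in mice low in muscle markers and 1 to 2 in the leave-one-out fits. Of the 35 lysosomal and upstream genes, 10 rose, against 5 without TMM factors, 2 with totals without Tg, 5 with upper-quartile factors, 4 with no filter on low counts, 6 with log2(FPKM + 1), 6 with log2(FPKM + 0.1), 5 with log2(FPKM + 1) without filter, 2 in mice low in muscle markers and 3 to 10 in the leave-one-out fits. Of these 35, 1 fell, against 2 with DESeq2, 2 with totals without Tg, 2 with upper-quartile factors, 0 in mice low in muscle markers and 0 to 1 in the leave-one-out fits. Over all genes 2699 were called, against 1339 with log2(FPKM + 1) without filter, 987 in mice low in muscle markers and from 1774 (without affected replicate 5) to 3390 (without affected replicate 4) in the leave-one-out fits.

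The lowest depth, 11434901 counts, was in the only unaffected Taconic mouse. Transcript levels alone were measured, not protein, and not the flux of autophagy.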
